A study of Mus musculus with 32 samples.

Results

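The 5 lymphomas described here are those with a high level of Vpreb1, out of 32 lymphomas of Eµ-myc mice. They were chosen by their own expression values: the Vpreb1 probe set with the highest mean had to reach 9.5 on the log2 scale. Vpreb1 was 11.17 in tumour 6, 11.36 in tumour 16, 11.41 in tumour 20, 11.64 in tumour 25 and 12.43 in tumour 31, and in the 27 others it ran from 4.90 to 8.03 with a median of 5.71. The member closest to the threshold was thus tumour 6 at 11.17, and the closest tumours outside it were tumour 18 at 8.03 and tumour 3 at 7.97. Vpreb1 defined the groups and was not tested, and its near copy Vpreb2 was left out of the tests with it.

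All tumours carried the Eµ-myc transgene, in which the immunoglobulin heavy chain enhancer drives Myc in the B lineage, and the labels give no treatment, age, strain or sex. Mice were dissected when they showed lymphoma or looked ill, and total RNA was read on 1 Affymetrix Mouse430_2 array per tumour. The labels do not say for each tumour whether RNA came from frozen tissue or from dissociated cells, nor whether any tumours share a mouse, so p-values measure the spread between these arrays only. Values are log2 expression from RMA, a method that brings all arrays to one scale, and a difference of 1 is a doubling. Array medians lay between 5.72 and 5.80, and the 9 tested reference genes had a median difference of 0.00.

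Vpreb1 and Igll1 (lambda5) form the surrogate light chain. In pro-B and pre-B cells it pairs with a newly made immunoglobulin heavy chain to give the pre-B cell receptor, which tests whether that heavy chain can be used. The genes are switched off when the cell goes on to rearrange a light chain and becomes an immature and then a mature B cell. EBF1 and the E-box factor E2A are known activators of both genes in early B cells.

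The genes of the surrogate light chain lie side by side in the mouse genome. In RefSeq's GRCm38.p6 annotation Igll1 spans chr16:16860671-16863985 and Vpreb1 chr16:16868401-16869255, with 4415 bases between them. Their promoter windows are shown because these neighbouring genes were high together, and that of Dntt because it was high in only some of the same tumours. Each window holds 250 bases before and 50 bases after the gene's start, from RefSeq on GRCm38.p6, at chr16:16863936-16864235 on the minus strand for Igll1, chr16:16869206-16869505 on the minus strand for Vpreb1 and chr19:41029025-41029324 on the plus strand for Dntt. Capitals mark matches to CCCNNGGG, an EBF-type motif, and to the E-box CAGGTG, each searched on both strands.
Igll1 promoter: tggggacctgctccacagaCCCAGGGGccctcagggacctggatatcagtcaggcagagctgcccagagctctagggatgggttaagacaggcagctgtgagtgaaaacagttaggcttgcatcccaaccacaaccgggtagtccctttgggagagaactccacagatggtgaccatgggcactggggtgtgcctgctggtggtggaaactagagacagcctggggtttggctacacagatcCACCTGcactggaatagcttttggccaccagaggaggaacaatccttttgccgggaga
Vpreb1 promoter: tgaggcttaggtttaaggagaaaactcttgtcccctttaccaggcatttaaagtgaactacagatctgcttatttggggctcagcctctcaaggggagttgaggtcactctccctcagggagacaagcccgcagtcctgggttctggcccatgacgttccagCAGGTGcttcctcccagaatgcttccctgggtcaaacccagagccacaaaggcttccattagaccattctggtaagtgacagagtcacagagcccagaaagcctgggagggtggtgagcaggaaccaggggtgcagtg
Dntt promoter: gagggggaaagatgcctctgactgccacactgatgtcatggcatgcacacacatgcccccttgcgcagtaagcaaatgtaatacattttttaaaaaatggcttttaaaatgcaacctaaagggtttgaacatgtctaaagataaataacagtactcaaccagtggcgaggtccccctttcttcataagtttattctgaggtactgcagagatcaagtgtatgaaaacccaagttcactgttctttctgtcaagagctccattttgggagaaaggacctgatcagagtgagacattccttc
In the Igll1 window CCCNNGGG matched once, from base -231 relative to the start, and the E-box once, as its reverse complement from base -8. The Vpreb1 window held the E-box from base -88, and the Dntt window neither motif. CCCNNGGG occurred in 13.7% of all 32851 windows. Counted by gene, 21.2% of the 9695 tested genes with a window held it in any of their windows. Shares by gene and by window are different measures and are not set against each other. Of the genes higher in the Vpreb1-high tumours, 63 had a window and 16 of these (25.4%) held it. The E-box occurred in 20.2% of all windows. By gene, it occurred in 21.1% of the tested genes with a window and in 13 of the 63 (20.6%). These matches describe letters only.

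Igll1, the partner of Vpreb1 and the other marker of the label, was high in the same tumours. It was 10.98, 10.83, 10.69, 8.77 and 11.25 in tumours 6, 16, 20, 25 and 31, against 5.45 to 7.49 with a median of 5.74 in the 27 others. All 5 values stood above all others, and tumour 25 was the lowest of the 5. The difference was 4.58 ± 0.29 (SE; limma adjusted p = 1.28e-12). The probe set used can match further transcripts, and the other Igll1 probe set was dim, with means of 5.29 in the Vpreb1-high tumours and 5.47 in the others. A probe set shared by Vpreb2 and Vpreb1 ran from 8.09 to 9.84 in the 5 tumours and from 4.10 to 5.23 in the others. It also reads Vpreb1, which defined the groups, so its separation is no independent result.

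**Figure D1:**
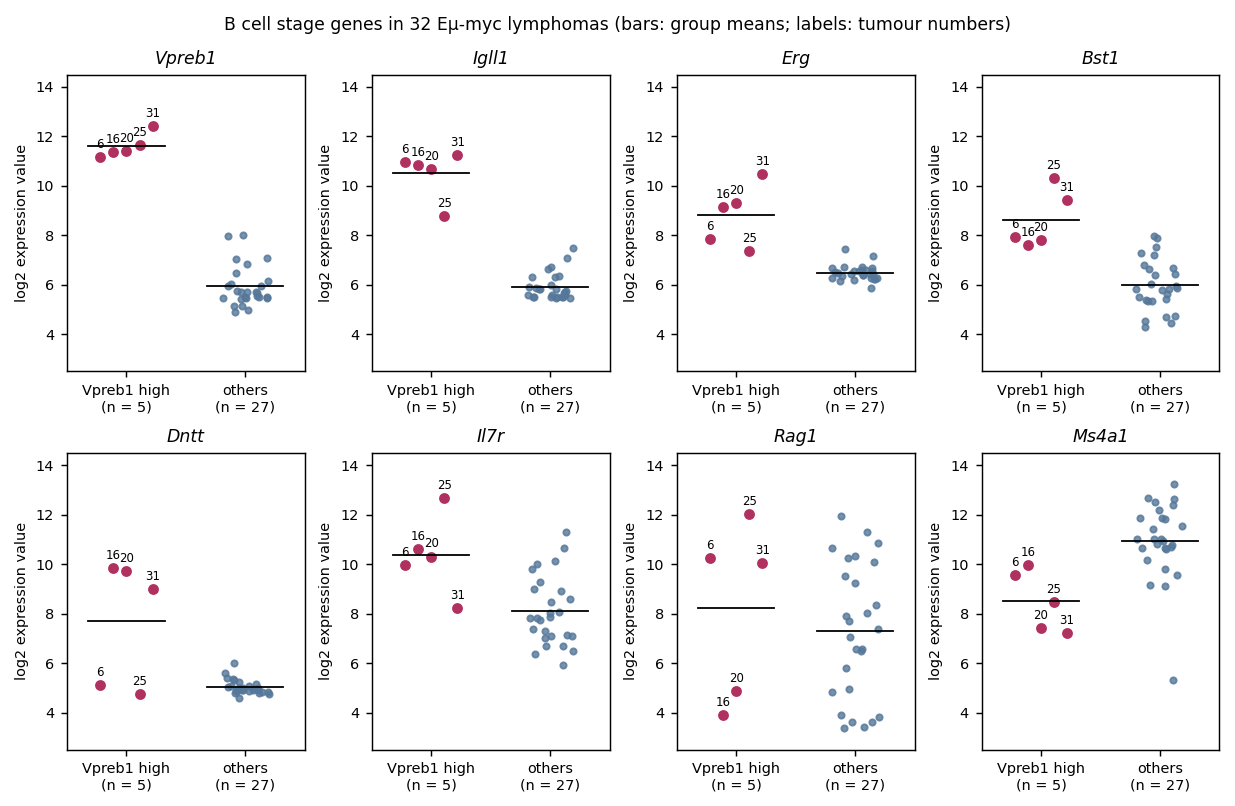
Log2 expression of 8 genes of B cell stages in each tumour, with the 5 Vpreb1-high tumours (numbered) left of the 27 others and a bar at each group's mean. Vpreb1 and Igll1 separate the groups, Dntt is high in tumours 16, 20 and 31, and Rag1 is low in tumours 16 and 20.

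Of 11983 genes tested, 81 (0.676%) were higher and 24 (0.2%) lower in the 5 Vpreb1-high tumours than in the 27 others (limma, Benjamini-Hochberg adjusted p under 0.05 over all genes). Of these, 45 were higher and 8 lower by more than 1 on the log2 scale, and the median size of the called differences was 1.01. The median difference of all tested genes was -0.01. Together these were 105 genes (0.876%). In 2 genes (0.0167%) all 5 tumours stood above all others, namely Igll1 and the methionine sulfoxide reductase gene Msra, which was named after its values were seen. Msra was 9.36, 9.11, 9.20, 9.03 and 9.25 in the 5 tumours and at most 9.01 in the others (difference 0.68 ± 0.15, limma adjusted p = 0.0171). No gene had all 5 tumours below all others (0%).

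Single tumours weighed on these counts. Without tumour 31 there were 28 higher and 6 lower genes, without tumour 20 there were 40 and 4, and without tumour 29, 1 of the 27 others, 41 genes were lower. In all, 21 higher and 3 lower genes passed with each of the 32 tumours left out in turn. An exact rank-sum test, which takes no account of the size of a difference, called 14 higher and 5 lower genes.

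**Figure D2:**
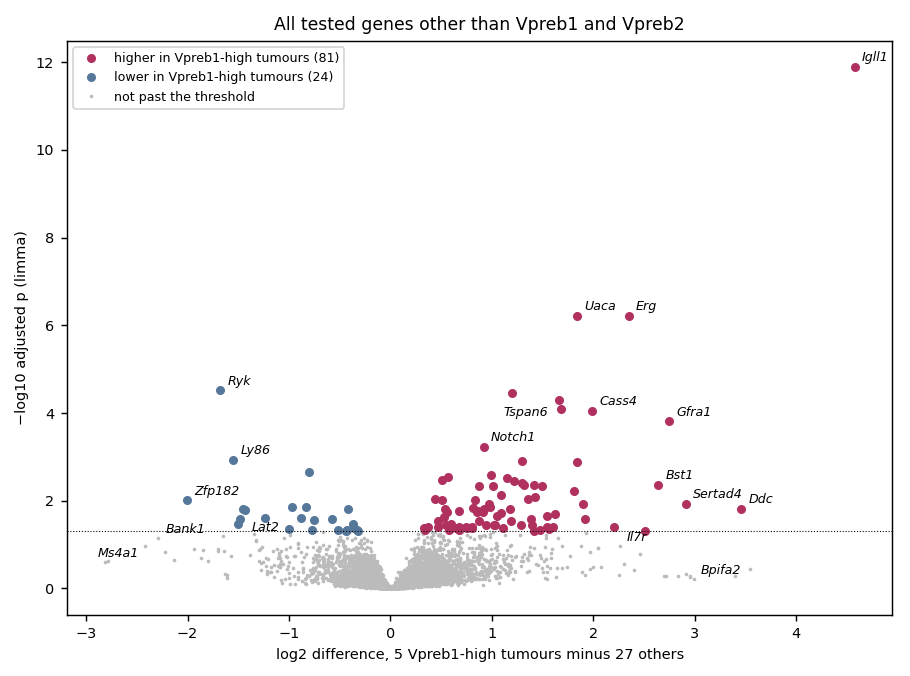
Each tested gene by its log2 difference, Vpreb1-high tumours minus others (horizontal), and the negative log10 of its limma adjusted p (vertical), with the threshold of 0.05 dotted. Igll1 stands apart at 4.58, and Il7r, Ms4a1 and Bank1 lie under the line.

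Among the genes of early lymphoid and blood progenitors, Erg and Bst1 were higher. Erg, an ETS family transcription factor of stem and progenitor cells, was 7.85, 9.16, 9.32, 7.38 and 10.49 in tumours 6, 16, 20, 25 and 31, and ran from 5.89 to 7.47 with a median of 6.45 in the others. In 4 of the 5 tumours it exceeded every other tumour, and tumour 25 fell just under tumour 13 at 7.47. Erg differed by 2.35 ± 0.25 (SE; limma adjusted p = 6.03e-07), and its dimmer probe set had means of 5.77 in the Vpreb1-high tumours and 5.35 in the others. On the probe set tested, the SD was 1.24 among the 5 tumours and 0.31 among the others, while the fit assumed 1 spread for both.

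Bst1 (BP-3, CD157), a surface enzyme found on mouse precursor B cells and on stromal cells, was 7.92, 7.62, 7.80, 10.32 and 9.44 in the 5 tumours, against 4.28 to 7.99 with a median of 5.84. Tumours 25 and 31 lay above all others, while tumours 6, 16 and 20 overlapped the top of the other group, where tumour 9 was at 7.99. The difference was 2.64 ± 0.50 (SE; limma adjusted p = 0.00434). Both Erg and Bst1 passed with each tumour left out in turn.

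The other early B cell receptors gave large but uneven differences. Of the 11 tested genes of that list, 1 (Bst1) was higher and 0 were lower, beside 0.676% and 0.2% of all genes. The list's median difference was 0.35, against -0.01 for all genes. Il7r, the receptor for the growth factor interleukin 7, was 9.98, 10.60, 10.31, 12.69 and 8.24 in the 5 tumours and ran from 5.93 to 11.32 with a median of 7.84 in the others (difference 2.26 ± 0.67, limma adjusted p = 0.109). Enpep, the aminopeptidase known as BP-1 on mouse pre-B cells, was 6.68, 10.44, 9.52, 8.22 and 10.77, against 4.57 to 10.56 with a median of 6.23 (difference 2.46 ± 0.80, limma adjusted p = 0.16). Neither passed, and in both the groups overlapped widely.

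Of the 11 tested progenitor factors, 1 (Erg) was higher and 0 lower, beside 0.676% and 0.2% of all genes. Their median difference was 0.21, against -0.01 for all genes. Sox4, a factor needed for B cell development, was between 11.59 and 12.80 in the 5 tumours and between 7.64 and 12.48 in the others (difference 1.51 ± 0.58, limma adjusted p = 0.241). Of the 20 B lineage transcription factors 0 were higher and 0 lower, with a median difference of 0.00. Klf2, a factor of resting lymphocytes, had the largest difference of these, -1.03 ± 0.32 (limma adjusted p = 0.126), followed by Pou2f2 (Oct-2) at -0.69 ± 0.21 (adjusted p = 0.117). Vpreb3, a relative of Vpreb1 that is expressed over more B cell stages, lay between 11.29 and 12.16 in the 5 tumours and reached 12.06 in the others (difference 0.83 ± 0.57, adjusted p = 0.589).

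The genes that assemble immunoglobulin split the 5 tumours. Rag1, which cuts immunoglobulin genes for recombination, was 10.25 in tumour 6, 12.02 in tumour 25 and 10.06 in tumour 31, and only 3.91 in tumour 16 and 4.88 in tumour 20. The others covered the same span, from 3.38 to 11.95 with a median of 7.36, and the difference was 0.91 ± 1.35 (limma adjusted p = 0.846). Rag2, its partner, followed the same split, with 7.90, 7.50 and 7.26 in tumours 6, 25 and 31 and 4.88 and 5.55 in tumours 16 and 20. It ran from 4.39 to 9.63 in the others (difference 0.36 ± 0.64, adjusted p = 0.873). The 2 tested genes of the V(D)J recombination list had a median difference of 0.63, with 0 called.

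Dntt, the terminal transferase that adds bases at heavy chain joints, split the tumours differently. It was 9.85, 9.72 and 9.0 in tumours 16, 20 and 31, and 5.11 and 4.76 in tumours 6 and 25, against 4.60 to 6.01 with a median of 4.97 in the others. Tumour 31 was thus high in both Dntt and Rag1, tumours 16 and 20 in Dntt and tumours 6 and 25 in Rag1. All 3 Dntt probe sets were high in the same 3 tumours. Dntt reached the filter level in only 4 arrays and was not among the 11983 genes. In the fit with no filter, where 84 of 18193 genes (0.462%) were higher and 18 (0.0989%) lower, its difference was 2.65 ± 0.46 (limma adjusted p = 0.00189).

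Of the 84 genes, 17 were below the filter. Dntt and Arpp21 led them, and Arpp21, an RNA-binding protein known from brain and lymphoid precursors, was named after its values were seen. It was 7.96, 9.28 and 9.47 in tumours 16, 20 and 31 and 4.82 and 5.69 in tumours 6 and 25, against 4.62 to 6.67 in the others (difference 2.52 ± 0.40, adjusted p = 0.000665). Its high tumours were those of Dntt.

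The largest differences after Igll1 included genes outside the B cell lists. Ddc, the decarboxylase that makes dopamine and serotonin, was 3.85, 7.49, 8.72, 10.18 and 9.77 in tumours 6, 16, 20, 25 and 31, against 3.72 to 10.19 with a median of 4.0. Tumour 6 was at the level of most others, and tumour 29 was as high as the highest of the 5, with tumours 17 and 13 next at 6.95 and 6.63. The difference was 3.46 ± 0.75 (SE; limma adjusted p = 0.0152), and it missed the threshold without tumour 20 (adjusted p = 0.0798), tumour 25 (0.0731) or tumour 31 (0.13).

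Gfra1, a co-receptor for the growth factor GDNF, was 6.74, 8.71, 8.87, 7.08 and 9.5 in the 5 tumours, against 4.70 to 7.73 with a median of 5.11. Tumours 16, 20 and 31 exceeded all others, and tumours 6 and 25 did not exceed tumour 13 at 7.73. The difference was 2.75 ± 0.41 (limma adjusted p = 0.000153).

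Sertad4, a nuclear protein of the SERTA family, was 6.75, 6.82, 9.13, 10.42 and 10.65, against 4.64 to 8.82 with a median of 5.43 (difference 2.91 ± 0.61, limma adjusted p = 0.0118). Tumours 17, 28 and 13 of the others were at 8.82, 8.77 and 8.16. Tumour 17 recurred in other genes: D930003E18Rik was highest of the others in tumours 29, 17 and 13, and Tmprss3, a transmembrane serine protease, in tumours 29, 17 and 15.

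Of the 15 most raised genes, 3 besides Erg had 4 of the 5 tumours above all others. These genes were picked for their large differences, and the share of all tested genes with 4 of 5 above was not counted. Cass4, a scaffold of adhesion signalling, was 5.10 in tumour 6 and 6.22, 7.06, 7.50 and 9.0 in tumours 16, 20, 25 and 31, against 4.71 to 6.2 in the others (difference 1.99 ± 0.28, limma adjusted p = 8.91e-05). Uaca, an ankyrin repeat protein linked to apoptosis, was 7.62, 8.06, 8.87, 6.81 and 8.95, against 5.69 to 7.03 (difference 1.84 ± 0.20, adjusted p = 6.03e-07). The tetraspanin Tspan6 was 6.75, 6.57, 8.10, 7.13 and 8.25, against 4.89 to 6.74 (difference 1.68 ± 0.24, adjusted p = 7.96e-05). The exception was tumour 6 in Cass4, tumour 25 in Uaca and tumour 16 in Tspan6.

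The remaining genes of the 15 were D930003E18Rik (difference 2.51), Tmprss3 (2.2), Tmem132e (1.92), the amino acid sensing GTPase Rragd (1.90), the cilium gene Rsph9 (1.84) and Pqlc3 (1.81), with adjusted p from 0.00131 for Rsph9 to 0.0491 for D930003E18Rik. Of the 15 most raised genes, 8 kept their call with each tumour left out: Igll1, Gfra1, Bst1, Erg, Cass4, Uaca, Rsph9 and Tspan6. The 7 others lost it without tumour 31, and 6 of these also without tumour 20, the exception being Pqlc3. D930003E18Rik and Tmprss3 also lost it without 22 and 7 of the 27 others, each left out alone.

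**Figure D3:**
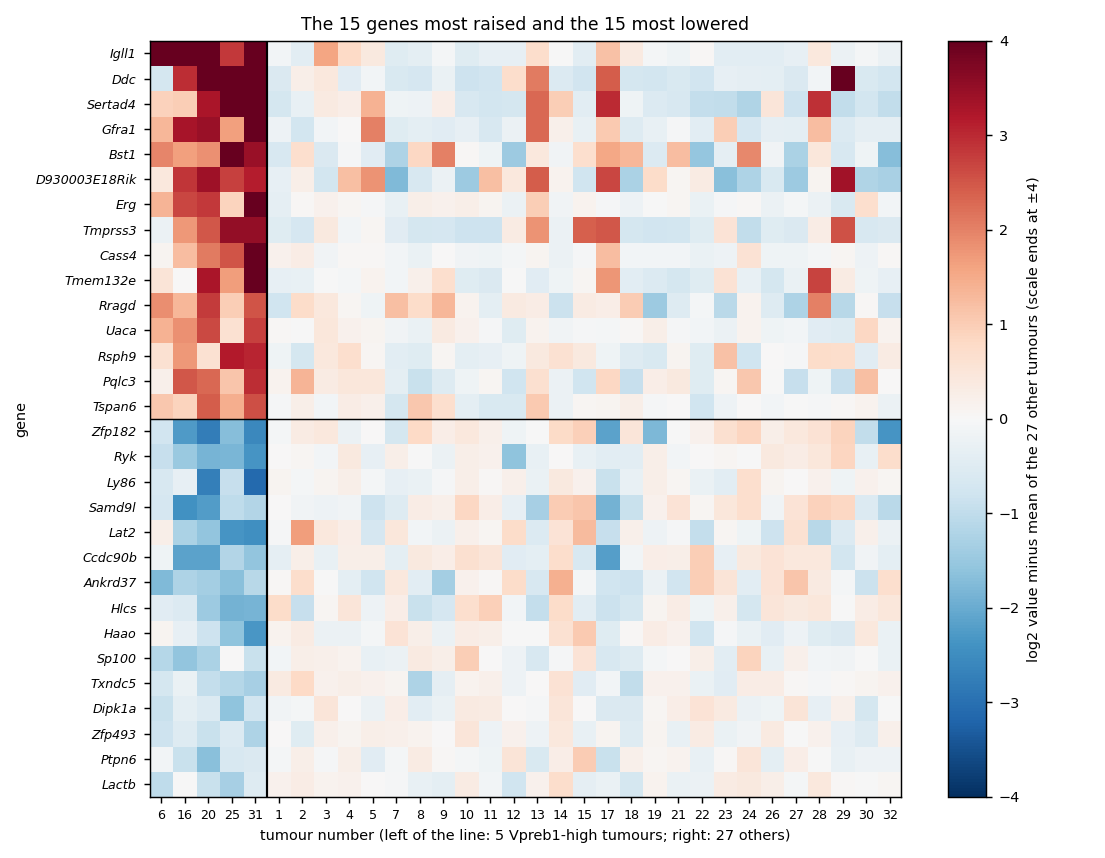
Log2 value minus the mean of the 27 other tumours for the 15 most raised (top) and 15 most lowered genes (bottom), with the 5 Vpreb1-high tumours left of the line and the colour scale ending at 4 on either side. Tumours 20 and 31 carry the strongest colours in most genes, and tumours 13, 17, 28 and 29 share some of the raised genes.

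A further 7 of the 81 higher genes are given as single genes, picked after their values were seen, and stand for no group. The receptor gene Notch1 was 9.64, 9.31, 9.56, 9.47 and 9.69 in the 5 tumours, against 8.06 to 9.35 with a median of 8.64 (difference 0.92 ± 0.15, limma adjusted p = 0.000593), and only tumour 16 lay within the range of the others. Numb, an inhibitor of Notch signalling, was higher by 0.44 ± 0.09 (adjusted p = 0.00928). The adhesion receptor Adgrg1 was 8.60, 6.94, 7.47, 7.57 and 7.78, against 6.08 to 7.26 (difference 1.2 ± 0.16, adjusted p = 3.45e-05).

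Bcr, a signalling protein known as the fusion partner of ABL in leukaemia, was higher by 1.22 ± 0.23 (limma adjusted p = 0.00359). Plcg1, a phospholipase of antigen receptor signalling, was higher by 1.18 ± 0.25 (adjusted p = 0.0151). Ada, adenosine deaminase, whose loss stops lymphocyte development, was higher by 1.11 ± 0.28 (adjusted p = 0.0427). Xrcc6 (Ku70), which joins DNA ends in V(D)J recombination, was 9.0 in tumour 6 and 11.43, 11.33, 11.75 and 12.21 in tumours 16, 20, 25 and 31, against 8.31 to 11.45 in the others (difference 1.56 ± 0.39, adjusted p = 0.0438). Of these 7 genes, Notch1 and Adgrg1 passed with each tumour left out.

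Of 18 G1 cyclins and inhibitors, 1 was higher and 0 lower, beside 0.676% and 0.2% of all genes, with a median difference of 0.06. The raised gene was Cdk6, a kinase that acts with D cyclins and drives cycling of precursor B cells, at 11.07, 10.64, 11.16, 11.02 and 11.58 in the 5 tumours, against 9.63 to 11.65 with a median of 10.22 (difference 0.80 ± 0.20, limma adjusted p = 0.0411). Cdk6 missed the threshold without tumour 31 (adjusted p = 0.239) or tumour 20 (0.147), and in 9 of the 32 fits with 1 tumour left out, 4 of them without a Vpreb1-high tumour and 5 without 1 of the others. None of the 19 proliferation genes or the 18 Myc targets was called, with median differences of 0.06 and -0.05, against -0.01 for all genes. Myc itself was between 10.84 and 11.69 in the 5 tumours and between 9.81 and 12.30 in the others (difference -0.19 ± 0.24, adjusted p = 0.799). Cdkn2a, which encodes p16Ink4a and p19Arf, was between 4.23 and 7.66, against 3.79 to 10.79 (difference -0.47 ± 0.90, adjusted p = 0.886).

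The lowered genes included Ly86, Lat2 and Ptpn6, of which only Ptpn6 is on a B cell list used here. Ly86 (MD-1), the partner of the receptor Cd180 on B cells, was 11.16, 11.46, 9.05, 10.86 and 8.67 in tumours 6, 16, 20, 25 and 31, against 10.89 to 12.46 with a median of 11.88. It was far below all others in tumours 20 and 31, just below in tumour 25, and within their range in tumours 6 and 16. The difference was -1.55 ± 0.26 (SE; limma adjusted p = 0.00116). Cd180 itself, named for this pairing after its values were seen, differed by -0.21 ± 0.23 (adjusted p = 0.773).

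Lat2 (NTAL), an adaptor of B cell and mast cell receptors, was 7.90, 6.41, 6.08, 5.29 and 5.21, against 6.54 to 9.33 with a median of 7.62 (difference -1.48 ± 0.34, limma adjusted p = 0.0257). All but tumour 6 lay below every other tumour. It missed the threshold without tumour 20 (adjusted p = 0.1), tumour 25 (0.0913) or tumour 31 (0.201). Ptpn6 (SHP-1), a phosphatase that dampens B cell receptor signals, was 9.90, 9.12, 8.33, 9.36 and 9.41, against 9.10 to 11.01 with a median of 9.98 (difference -0.77 ± 0.20, adjusted p = 0.0465). Only tumour 20 stood below all others, and without it the adjusted p was 0.298. Ptpn6 missed the threshold in 21 of the 32 fits with 1 tumour left out, 4 of them without a Vpreb1-high tumour and 17 without 1 of the others. Ptpn6 was the 1 gene called lower of 18 tested genes of B cell receptor signalling, and 0 were higher. Over all genes, 0.2% were lower and 0.676% higher. The list's median difference was -0.04, against -0.01 for all genes.

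The other lowered genes had varied roles. Ryk, a receptor for Wnt proteins, was 7.70, 7.12, 6.76, 6.78 and 6.26 in the 5 tumours, against 7.01 to 9.46 with a median of 8.63 (difference -1.68 ± 0.22, limma adjusted p = 3.06e-05), and tumours 20, 25 and 31 lay below all others. The zinc finger gene Zfp182 had the largest difference, -2.01 ± 0.41 (adjusted p = 0.00969). Ankrd37, known as a hypoxia-induced gene, was between 6.65 and 7.29, against 7.05 to 9.84 (difference -1.43 ± 0.31, adjusted p = 0.016). Samd9l (-1.50) and the nuclear body gene Sp100 (-0.97) are interferon-inducible, while of the 13 tested genes of the interferon list 0 were higher and 0 lower (median difference -0.15).

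The rest of the 15 most lowered genes were Ccdc90b (difference -1.45), the biotin ligase Hlcs (-1.24), the tryptophan breakdown enzyme Haao (-1.0), the disulfide isomerase Txndc5 (-0.88), Dipk1a (-0.83), Zfp493 (-0.80) and Lactb (-0.75). Of the 15, Ryk, Ly86 and Zfp493 passed with each tumour left out. The other 12 lost their call without 1 or more of the 5 Vpreb1-high tumours, and Ptpn6 and Haao also without 17 and 12 of the 27 others, each left out alone.

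Genes of mature B cells mostly had negative differences that did not pass the test. Of the 13 tested genes of the mature B cell surface list 0 were higher and 0 lower, 11 had a negative difference, and the median was -0.38. Ms4a1 (CD20) was 9.57, 9.96, 7.40, 8.48 and 7.21 in the 5 tumours, against 5.31 to 13.25 with a median of 11.01 (difference -2.42 ± 0.71, limma adjusted p = 0.107). Bank1, a B cell scaffold protein, was 9.85, 7.02, 6.48, 8.02 and 7.95, against 6.46 to 11.61 with a median of 10.51 (difference -2.29 ± 0.62, adjusted p = 0.0708). In both genes all 5 tumours lay under the median of the others but within their range. Tumour 29 set the low end of that range in both, with tumour 17 next at 9.11 in Ms4a1 and 7.16 in Bank1. Tumours 20, 25 and 31 in Ms4a1 and tumours 16 and 20 in Bank1 were below all others but tumour 29. Over the alternatives that compared the groups (limma fits and the rank-sum test), adjusted p ran from 0.00743 to 0.346 for Ms4a1. For Bank1 it ran from 0.0179 to 0.571.

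All 10 tested MHC class II genes had a negative difference, with a median of -1.04, and none was called. The chain gene H2-Eb1 was 10.66, 8.56, 9.74, 10.43 and 10.45, against 9.59 to 12.97 with a median of 11.25 (difference -1.27 ± 0.38, limma adjusted p = 0.112). The mean log2 level of the list was 9.54, 7.79, 8.49, 9.46 and 9.46 in tumours 6, 16, 20, 25 and 31, against 8.61 to 11.10 with a median of 9.85. Tumours 16 and 20 were thus below all others.

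All 4 tested immunoglobulin genes also had a negative difference (median -1.03), and 0 were called. The mu heavy chain gene Ighm was between 11.70 and 12.87, against 9.64 to 14.07 (difference -0.34 ± 0.37, limma adjusted p = 0.768). The lambda light chain gene Iglv1 was 5.19, 6.28, 5.85, 10.79 and 4.07, against 4.72 to 12.41 with a median of 7.96 (difference -1.61 ± 1.08, adjusted p = 0.576), high in tumour 25 alone of the 5. No kappa chain probe set carried a single gene name, so Igkc was not analysed here. Bcl2, which blocks apoptosis, was between 5.19 and 7.52, against 5.28 to 9.25 (difference -1.30 ± 0.41, adjusted p = 0.134).

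**Figure D4:**
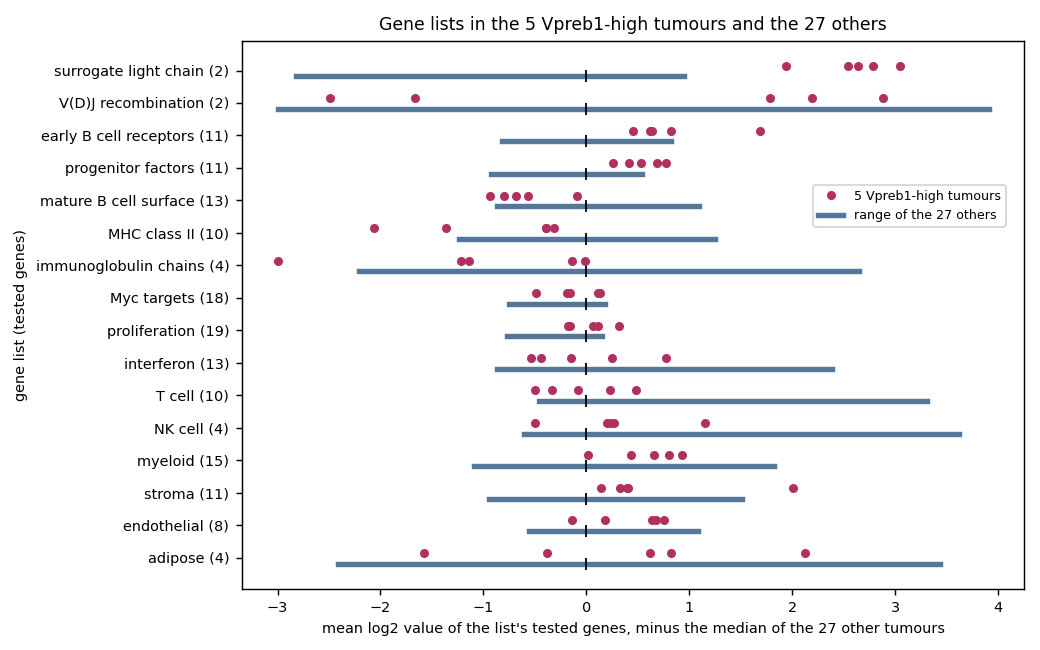
Mean log2 level of the tested genes of 16 lists in each Vpreb1-high tumour (points), above the range of the 27 others (bar), all relative to the median of those 27. V(D)J recombination splits the 5 tumours, MHC class II reaches below the others in tumours 16 and 20, and stroma reaches above them in tumour 25.

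The remaining lists held no called gene. They were homing and egress (13 tested, median difference -0.06), germinal centre (4, -0.13), plasma cell (7, 0.07), NF-kB (11, -0.05), p53 pathway (14, -0.07), Bcl2 family (13, 0.04), oxidative phosphorylation (16, 0.03), glycolysis (13, -0.15) and cholesterol synthesis (12, 0.00), beside -0.01 for all genes. Itga4, an integrin chain of lymphocyte homing, was between 11.04 and 11.66 in the 5 tumours and reached 11.34 in the others (difference 0.77 ± 0.23, limma adjusted p = 0.121), and its partner chain Itgb7 differed by -1.39 ± 0.47 (adjusted p = 0.174).

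Markers of other cells in the samples differed between tumours. In whole-tumour RNA, fewer cells of a type and less RNA per cell cannot be told apart. The mean log2 level of 10 T cell markers ran from 5.39 to 6.37 in the 5 tumours and from 5.43 to 9.20 in the others, with 0 called and a median difference of -0.39. The 15 myeloid markers ran from 8.84 to 9.75, against 7.73 to 10.64 (0 called, median 0.35), the 4 NK cell markers from 5.18 to 6.83, against 5.07 to 9.30 (0 called, median -0.14), and the 8 endothelial markers from 6.59 to 7.48, against 6.17 to 7.81 (0 called, median 0.32). The 11 stroma markers were 9.60, 9.61, 9.54, 11.22 and 9.35 in tumours 6, 16, 20, 25 and 31, against 8.26 to 10.72 with a median of 9.21, so that tumour 25 stood above all others. All 11 had a positive difference (median 0.72) and 0 were called. The erythroid list had 2 tested genes (median -0.14) and the adipose list 4 (median 0.30), with 0 called in either. The T cell genes Cd5 and Trat1, the NK cell gene Ncr1 and the erythroid genes Hba-a1, Alas2, Klf1 and Slc4a1 were among the markers too dim to test. The T cell, myeloid and stroma lists were also averaged into a single score, with genes scaled to equal spread. With that score as the covariate, 118 genes were higher, 77 of them among the 81, and 34 were lower. The cell types were not adjusted for separately.

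Salivary gland genes were high in some tumours of both groups. The mean log2 level of the 7 genes was 13.30, 13.51 and 12.18 in tumours 16, 20 and 25 and 4.0 and 4.56 in tumours 6 and 31, against a median of 4.2 and a highest value of 13.88 in the others. The list's median difference was 2.95, and 0 of its genes were called. Bpifa2, a salivary secreted protein, was high in 3 of the 5 tumours and in 8 of the 27 others (difference 2.99 ± 2.2, limma adjusted p = 0.617). With Bpifa2 as a covariate 64 genes were higher and 10 lower. Without every tumour above 9 in Bpifa2, which leaves tumours 6 and 31 of the 5, there were 52 higher genes, 22 of them among the 81, and 21 lower genes, 3 of them among the 24. The part of this tissue in the other calls was not tested. Xist was high in 3 of the 5 tumours and in 15 of the 27, and as a covariate it left 77 higher and 21 lower genes. Of the 4 tested sex-linked genes 0 were called (median difference -0.36).

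Genes of whole chromosomes stood apart in some of the 5 tumours. On chromosome 12 the median log2 deviation from each gene's median over the 32 tumours was 0.23, 0.27 and 0.33 in tumours 6, 16 and 20, and -0.07 and 0.00 in tumours 25 and 31. Counting values above 0.15, this was 3 of 5 tumours, against 1 of 27. On chromosome 15, which holds Myc, tumours 16, 20 and 31 were at 0.23, 0.23 and 0.29, and 3 of 5 tumours exceeded 0.15, against 2 of 27. On chromosome 3 none of the 5 exceeded it, against 9 of the 27. Tumour 20 was also at 0.27 on chromosome 10 (1 of 5 above 0.15, against 1 of 27). Tumour 6 was at 0.30 on chromosome 18 (1 of 5, against 2 of 27).

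The median difference between the groups was 0.19 over the 425 tested genes of chromosome 12, 0.17 over the 485 of chromosome 15 and -0.11 over the 579 of chromosome 3, beside -0.01 over all genes. With no filter on dim probe sets the medians of chromosomes 12, 15 and 3 were 0.07, 0.07 and -0.07. Higher genes were 11 of the 425 tested on chromosome 12 and 8 of the 485 on chromosome 15. Both were larger shares than the 81 of 11983 (0.676%) over all genes. The other 62 of the 81 lay elsewhere or, like D930003E18Rik and 2210408K08Rik, had no chromosome assigned here. With each chromosome of each tumour centred on its own median, a choice made after seeing the data, 69 genes were higher and 26 lower, of which 66 and 18 were among those above. DNA copy number was not measured here.

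**Figure D5:**
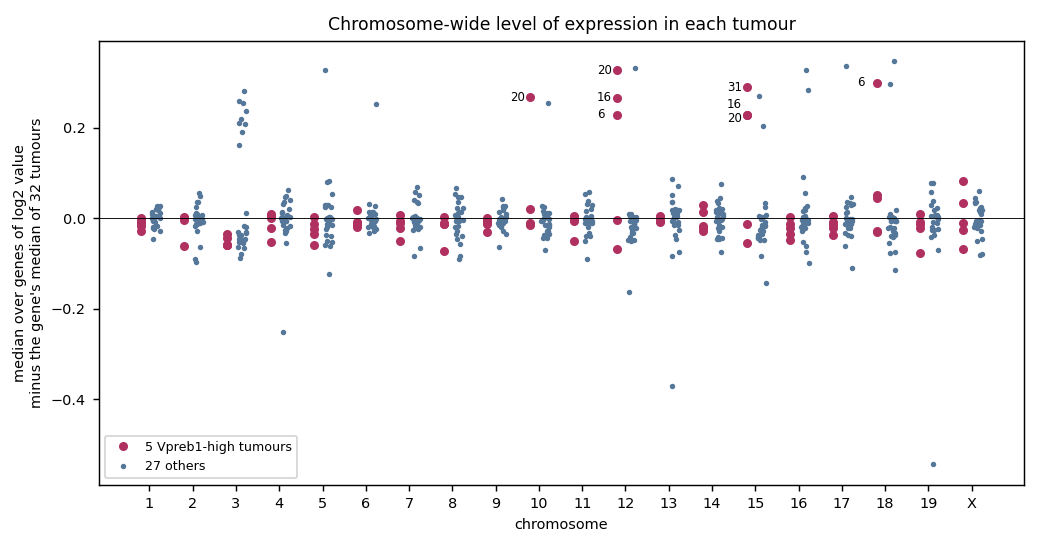
Median over the tested genes of each chromosome of the log2 value minus the gene's median over 32 tumours, with the 5 Vpreb1-high tumours left of the 27 others at each chromosome and those above 0.15 numbered. Tumours 6, 16 and 20 are raised on chromosome 12 and tumours 16, 20 and 31 on chromosome 15, while 9 of the 27 others are raised on chromosome 3.

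The 5 tumours were not a uniform group. Over the 11983 tested genes, each centred on its mean over the tumours, tumours 16 and 20 had a Pearson correlation of 0.73, the highest of all 496 pairs of tumours. The other pairs among the 5 ran from -0.13 to 0.29. These points are genes read on the same arrays and are not independent. Both tumours were high in the salivary genes and on chromosomes 12 and 15, and over the 10947 genes left without those chromosomes and without genes that followed Bpifa2 (r of 0.5 or more in size) their correlation was 0.63. They differed in sex-linked genes, with Xist at 6.92 in tumour 16 and 12.93 in tumour 20, and Eif2s3y, on the Y chromosome, at 9.15 and 3.65. The nearest tumour was 18 for tumour 6, 30 for tumour 25 and 13 for tumour 31, none of them Vpreb1-high.

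In 428 tested genes the SD among the 5 exceeded 1. The next 3 genes, which differed among the 5, were named after their values were seen. Igf2, a fetal growth factor, was 11.89 in tumour 6 and at most 6.48 in every other tumour. Cited1, a transcriptional co-regulator, was 9.57 in tumour 16 and 9.85 in tumour 20, stayed at or below 3.97 in tumours 6, 25 and 31, and reached 9.48 in the 27 others. Gpm6b, a membrane protein of the nervous system, was 8.97, 10.85 and 10.65 in tumours 6, 25 and 31 and 5.97 and 5.65 in tumours 16 and 20, with the others between 5.81 and 8.95.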

How the data were processed

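Total RNA of 32 lymphomas was labelled as biotin cRNA and hybridised to 1 array each, per the labels' protocols. The values deposited by the authors are on the log2 scale, 1 per probe set and array. The submitters' processing notes name RMA and affy without a version. RMA equalises the arrays, so that a change common to most genes would not show. Scanner files were not used here. All 32 columns were mapped by sample (0 left over), and 0 pairs of arrays were identical (pairwise r from 0.938 to 0.993). Precision is limited by the small number of arrays.

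The platform annotation names 1 gene for 34958 of the 45101 probe sets, several for 932 and none for 9211. Only the first kind was named, and 34754 of them had an Entrez identifier in RefSeq GRCm38.p6, which changed 0 symbols. Probe sets that reached 5.78 (the middle value of the probe sets' means) in at least 5 arrays were kept, and the one with the highest mean stood for its gene. This left 11983 genes without Vpreb1 and Vpreb2, of which 0 passed through the 5 Vpreb1-high tumours alone. A gene could still pass mainly through these tumours. Cass4 did so, reaching 5.78 in tumours 16, 20, 25 and 31 and, of the others, only in tumour 17 (6.20, next 5.55). How many further genes passed in this way was not counted. Groups were compared with limma 3.58.1 in R 4.3.3 (lmFit, eBayes, Benjamini-Hochberg adjusted p under 0.05), a fit that assumes the same spread in both groups. The steps were tested on simulated data that also had 1 spread for both groups. Some called genes were far more spread among the 5 than among the others, as Erg (SD 1.24 and 0.31) and Cass4 (1.46 and 0.31). Dntt, in the fit with no filter, was too (2.54 and 0.29), while Ankrd37 was less spread among the 5 (0.28 and 0.70). No fit with separate spreads was run. Errors are standard errors of the difference. Tables and figures were made in Python 3.11.15 with pandas 2.3.3, numpy 2.4.6, matplotlib 3.10.9 and scipy 1.17.1.

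Named genes are the 15 largest called differences each way, called list members, otherwise the 2 largest differences of a list, and a fixed set of B cell genes, Myc, Cdkn2a, Xist and Bpifa2. The members, the 32 gene lists and the rule were chosen with earlier results of these data known. Lists are described by counts and medians, without a test.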

Additional observations from a re-analysis of the deposited data

Results flagged for a closer look

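In 7 of the genes named by the rule, 1 of the 5 Vpreb1-high tumours stood far from the other 4 relative to their whole range (Dixon's criterion, which chance alone meets in a small share of groups). How many of the named genes chance alone would flag was not worked out, so the 7 are not shown to exceed it. Tumour 25 was low in Igll1 at 8.77, with the next at 10.69, and low in Sqle, an enzyme of cholesterol synthesis, at 8.10, with the next at 9.69. It was high in the collagen gene Col1a2 at 13.25, with the next at 11.47, and it also had the highest mean level of the stroma markers. Tumour 6 was low in D930003E18Rik at 5.63, with the next at 7.94. It was high in the immunoglobulin alpha gene Igha at 10.88 (next 7.04), in the glucose transporter gene Slc2a1 at 8.69 (next 8.02) and in the death receptor gene Fas at 6.29 (next 5.84). Of these genes, Igll1 and D930003E18Rik were called between the groups.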

How the results depend on the processing

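The 31 called genes named by the rule kept their direction in all 1502 combinations of gene and alternative and their side of the threshold in 1303. Igll1, Erg, Uaca, Tspan6, Ryk, Ly86 and Zfp493 passed under every alternative in which they were tested. The filter at the 75th percentile of probe set means left some of them untested, among them Erg and Uaca. Higher genes, 81 as reported, numbered 42 with a filter at the 75th percentile of probe set means, 132 against the Vpreb1 level, 52 without the tumours above 9 in Bpifa2 and 14 by the exact rank-sum test, and from 28 (without tumour 31) to 109 (without tumour 29) with 1 tumour left out. Lower genes, 24 as reported, numbered 13 and 58 under the first pair of these, 10 with Bpifa2 as a covariate and 5 by the rank-sum test, and from 4 (without tumour 20) to 41 (without tumour 29). The median difference of chromosome 3 was -0.07 with no filter, -0.15 with the stricter filter and -0.08 without the tumours above 9 in Bpifa2. That of chromosome 12, 0.19 as reported, was 0.07 with no filter and 0.13 without those tumours, and that of chromosome 15, 0.17 as reported, was 0.07 and 0.12. Only genes that had not passed changed direction. Without the tumours above 9 in Bpifa2 these were Perp (-0.43), Tek (-0.07), Epor (-0.02), Kdm5d (0.71), Uty (0.54), Pgk1 (0.05), Xist (-1.54) and Bpifa2 (-0.33). Without tumours 2, 10 and 24 they were Cxcl10 (0.04) and Nkg7 (0.14), with quantile normalization again Epor (-0.01), and against the Vpreb1 level Xist (-0.01). With 1 tumour left out, the lowest and highest values were -0.04 and 1.98 for Rag1, -0.86 and 0.01 for Ccnd1, -0.12 and 0.63 for Gzma (the change of direction in each without tumour 25), -0.21 and 1.06 for Adipoq (without tumour 31), -0.47 and 0.09 for Lmo2 (without tumour 25 or 31), -0.33 and 0.07 for Nkg7 (without tumour 24 or 31) and -0.52 and 1.27 for Xist (without tumour 20, 25 or 31). Beyond the settings' own construction the cause was not tested. No paired analysis was possible because the labels give 1 group and the numbers only name tumours. With 5 tumours in the smaller group, 1470 genes had an unadjusted p under 0.05, against 105 after adjustment, and a gene that missed the threshold is not shown to be equal. Dim probe sets bound what can be read: Dntt was tested only without the filter.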
